A study of Drosophila melanogaster with 12 samples.

Results

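The genes of 8 enzyme subunits of the tricarboxylic acid (TCA) cycle were followed on the ribosomes of fly oenocytes, across age and across feeding with paraquat. They are kdn, mAcon1, Idh3a, Idh3b, Idh3g, Scsalpha1, Fum1 and Mdh2, given here in the order in which their enzymes act. The 8 genes were taken by name, through the RefSeq identifiers of each locus, from a table of 16191 loci of which 13299 are protein-coding. All 8 had a locus, and all 8 passed a minimum of 1 FPKM (fragments per kilobase of transcript, scaled to the depth of the sequencing) in every group. Over the groups their levels ran from 21.0 FPKM for Idh3g in young flies on water to 561 FPKM for Mdh2 in young flies on paraquat. In the deposited values none of the 8 differed by 2-fold between any of the groups compared. Of all protein-coding loci compared, 37.3% did with age in water and 20.3% with age on paraquat. With paraquat, 11.4% did in young and 3.43% in aged flies. These shares differ with the level of a locus, as given below. Of 9 other genes of the same cycle, SdhC, SdhD and ScsbetaG were at least 2-fold lower with age in water, beside 23.7% of all loci. The counts of the 8 and of the 9 depend on the scale. With the summed FPKM of all groups set equal, 4 of the 8 were at least 2-fold higher with age in water, as were 50.8% of 9106 protein-coding loci. None of SdhC, SdhD and ScsbetaG was 2-fold lower on that scale, beside 6.26% of all loci.

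The TCA cycle runs in the mitochondrial matrix. It joins the acetyl group of acetyl-CoA to oxaloacetate and oxidises the product back to oxaloacetate, and the electrons it releases pass as NADH and as reduced quinone to the respiratory chain. Its intermediates also leave the mitochondrion: exported citrate gives the acetyl-CoA from which fatty acids are built, and malate carries reducing power across the membrane. Oenocytes are the cells under the insect cuticle that make very long-chain fatty acids and cuticular hydrocarbons, and they are often likened to the liver. Paraquat is a herbicide that takes electrons from NADPH- and NADH-dependent enzymes, and from complex I in mitochondria, and passes them to oxygen as superoxide.

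All flies were females in which PromE-Gal4, an oenocyte driver cut from the Desat1 gene, switched on a FLAG-tagged ribosomal protein, RpL13A. Ribosomes were pulled down from whole-fly lysate with an antibody to FLAG, and the polyadenylated RNA on them was sequenced. The 12 libraries form 4 groups of 3. H2O-Young and PQ-Young are given in the sample labels as 14 days after eclosion, and H2O-Aged and PQ-Aged as 28 days. The methods of the study state somewhat different ages, so the groups are called young and aged here. PQ flies spent 24 h on food with 10 mM paraquat on its surface and H2O flies spent the same 24 h on food with water. Each library came from a pool of many flies. No input RNA and no flies without the driver or the tag were analysed here, so the members are described within the pull-down only. With RNA per group as the only readout, fewer cells and less RNA per cell cannot be told apart.

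Each group has 1 FPKM value per locus, estimated over its 3 libraries together. There is therefore no standard deviation, no test and no p-value beside any value below, and library depths are unknown. A difference is given as a ratio of group values or its log2, "higher" and "lower" describe these group values, and a gene is counted only where the ratio is at least 2-fold. How far the 3 libraries of a group lay apart could not be compared with any difference.

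The first enzyme, citrate synthase, is encoded by kdn (knockdown, FBgn0261955). Its locus lies on chromosome X from 6350629 to 6361323 in the dm6 build, on the plus strand, and the representative transcript has 3 exons, 2636 bases and 522 codons before the stop. It overlaps no other gene. mAcon1 (FBgn0010100), the mitochondrial aconitase that turns citrate into isocitrate with an iron-sulfur cluster, lies on 2L from 21168570 to 21173185 on the plus strand, with 4 exons and 787 codons. The authors' locus for it runs from 21163641 to 21174179 and also holds CG31627, so the value of mAcon1 is shared with that gene. That span also overlaps Noc2 on the plus strand, which has a value of its own, 55.3 FPKM in H2O-Young. Whether reads of Noc2 enter the value of mAcon1 was not tested. mAcon1 also overlaps CG43345 and CG43346 on the opposite strand.

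The 3 subunits of NAD-dependent isocitrate dehydrogenase, the enzyme that makes 2-oxoglutarate and the first NADH of the cycle, are encoded apart. Idh3a (FBgn0027291), the catalytic alpha subunit, lies on X from 19518428 to 19521810 on the minus strand, with 6 exons and 377 codons. Idh3b (FBgn0038922), the beta subunit, lies on 3R from 22016391 to 22019382, also on the minus strand, with 6 exons and 370 codons. Idh3g (FBgn0039358), the gamma subunit, lies on 3R from 25680845 to 25683780 on the plus strand, with 7 exons and 402 codons. Idh3a and Idh3b overlap no other gene, but Idh3g overlaps the ribosomal protein gene RpL27 on the opposite strand.

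Scsalpha1 (FBgn0004888) encodes the alpha subunit of succinyl-CoA synthetase, which makes ATP or GTP from succinyl-CoA. It lies on 3L from 3814211 to 3818383 on the plus strand, with 4 exons and 328 codons, and it overlaps Acp63F and 2 long non-coding RNAs on the minus strand. Fum1 (FBgn0286222) encodes fumarase, which adds water to fumarate to give malate. It lies on X from 6678424 to 6681845 on the plus strand, with 5 exons and 495 codons, and it shares its locus value with its paralog Fum2 and overlaps ND-ASHI, a subunit gene of complex I, on the minus strand. Mdh2 (FBgn0262559), the mitochondrial malate dehydrogenase that regenerates oxaloacetate, lies on 3R from 18226396 to 18228718 on the plus strand, with 4 exons and 336 codons, and overlaps no gene. As coding genes, 6 members stood alone at their locus, and 4 of these (kdn, Idh3a, Idh3b and Mdh2) overlapped no gene on either strand. The library kit keeps the strand, but whether it was used in the counting is not given in the sources used here, so reads of mAcon1 and CG43346, of Idh3g and RpL27, of Scsalpha1 and Acp63F, or of Fum1 and ND-ASHI may not have been told apart.

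Within every group the same 3 genes had the highest FPKM, in the order Mdh2, Fum1 and Scsalpha1, and the same 2 the lowest, Idh3b above Idh3g. In between, kdn, mAcon1 and Idh3a changed places and lay close to each other, between 54.8 and 82.0 FPKM over all 4 groups. Among the members, Mdh2 and Fum1, whose value includes Fum2, were thus several times above kdn, the gene of the first step. The FPKM of Mdh2 was 6.96 times that of kdn in H2O-Young and 6.85 times in PQ-Young, against 6.44 times in H2O-Aged and 4.53 times in PQ-Aged. Against all protein-coding loci, Mdh2 stood at the 96.6th percentile of FPKM in H2O-Young and Idh3g at the 69.3rd.

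**Figure D1:**
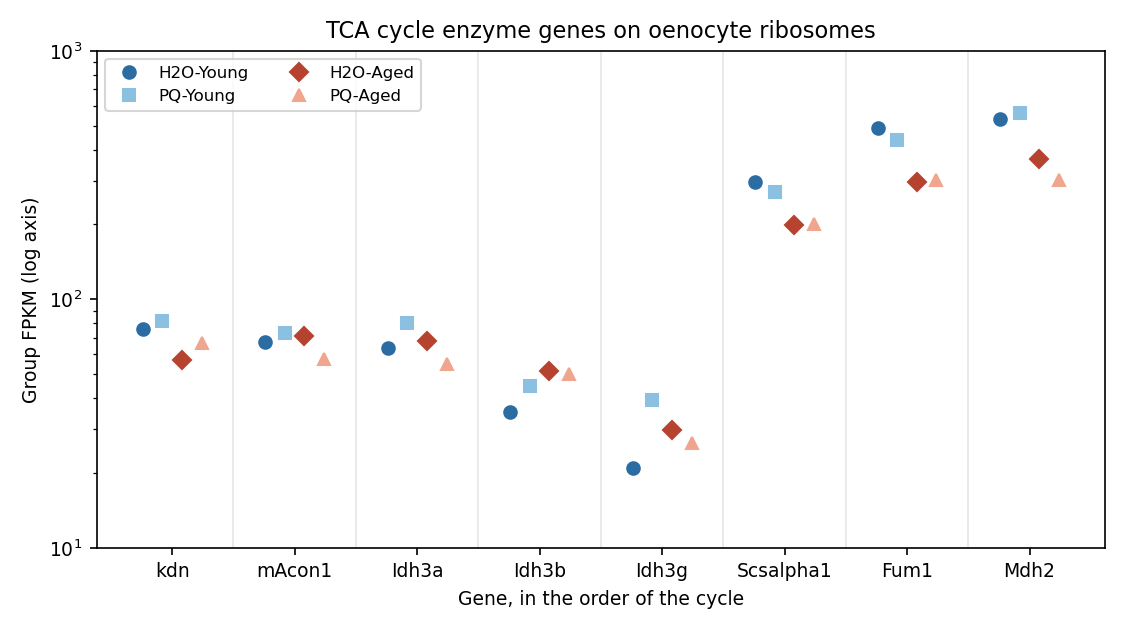
Group FPKM of the 8 genes on a log axis, with the genes in cycle order and 1 point for each of the 4 groups, each a value for 3 libraries together. Mdh2, Fum1 and Scsalpha1 lie between 199 and 561 FPKM in every group, and the other 5 genes between 21.0 and 82.0.

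The levels drew closer together with age. The ratio of the highest to the lowest member, Mdh2 to Idh3g, was 25.2 in H2O-Young and 14.3 in PQ-Young, against 12.4 in H2O-Aged and 11.5 in PQ-Aged. The standard deviation of log2 FPKM over the 8 genes was 1.76, 1.49, 1.32 and 1.33 in the same order, which is a spread between genes and not between libraries. In water and on the deposited scale, Mdh2 was lower with age and Idh3g higher, while on paraquat both were lower, at log2 ratios of -0.89 and -0.57. Over the 8 genes the log2 age ratio in water had a Pearson correlation of -0.91 with the log2 level in H2O-Young. This describes 8 genes that share 2 groups, and since the H2O-Young level enters both quantities, it is given without a p-value. High and low genes also differed in this way across the whole table. Among protein-coding loci with a mean of 316 to 1000 FPKM the median log2 age ratio in water was -1.15 over 321 loci, while among those between 10 and 31.6 FPKM it was 0.27 over 2473 loci.

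kdn, citrate synthase, was at 76.3 FPKM in H2O-Young and 82.0 in PQ-Young, against 57.1 in H2O-Aged and 66.9 in PQ-Aged. Both aged groups were below both young groups. The log2 age ratio was -0.42 in water and -0.29 on paraquat, and the log2 paraquat ratio was 0.10 in young and 0.23 in aged flies, so kdn had the highest paraquat ratio of the 8 genes in aged flies.

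mAcon1, aconitase, was at 67.6, 72.9, 71.0 and 57.4 FPKM in young flies on water and on paraquat and in aged flies on water and on paraquat. Its highest group was only 1.27 times its lowest, the narrowest range of the 8. PQ-Aged was the low group, with a log2 ratio of -0.31 against H2O-Aged and of -0.35 against PQ-Young, and these values include CG31627. CG43346, on the other strand, had higher FPKM, at 263, 175, 109 and 109.7 over the same groups, with a log2 age ratio of -1.27 in water, and its part in the value of mAcon1 was not tested.

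Idh3a, the catalytic subunit of isocitrate dehydrogenase, was at 63.6 FPKM in H2O-Young and 80.4 in PQ-Young, against 68.2 in H2O-Aged and 54.8 in PQ-Aged. The log2 paraquat ratio was 0.34 in young and -0.31 in aged flies as deposited, but 0.24 in both when the groups were scaled to equal Gapdh1. The log2 age ratio as deposited was 0.10 in water, against -0.55 on paraquat. With equal Gapdh1 it was 0.47 in both, and with equal summed FPKM 1.24 and 0.15.

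Idh3b, the beta subunit, was at 35.1, 44.9, 51.6 and 50.2 FPKM in the same order of groups. As deposited, it was the only member above its young level at both treatments, with log2 age ratios of 0.56 in water and 0.16 on paraquat. With equal Gapdh1, mAcon1, Idh3a and Idh3g were so too, and with equal summed FPKM every member but Mdh2 was. H2O-Young was the low group of Idh3b, and the other 3 lay between 44.9 and 51.6 FPKM.

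Idh3g, the gamma subunit, was at 21.0 FPKM in H2O-Young and 39.2 in PQ-Young, against 29.7 in H2O-Aged and 26.4 in PQ-Aged. The PQ-Young value was 1.86 times that of H2O-Young, a log2 ratio of 0.90, which lay at the 96.5th percentile of the paraquat ratios of all protein-coding loci compared in young flies. In aged flies the log2 paraquat ratio was -0.17. RpL27, on the other strand, was far more abundant, at 2574, 2778, 1318 and 1000.2 FPKM, and its log2 paraquat ratio in young flies was 0.11. The part of RpL27 reads in the value of Idh3g was not tested.

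Scsalpha1, the alpha subunit of succinyl-CoA synthetase, was at 297, 271, 199 and 200.1 FPKM. The young groups lay together above the aged groups, which differed by less than 1 FPKM. The log2 age ratio was -0.58 in water and -0.44 on paraquat, against paraquat ratios of -0.13 in young and 0.01 in aged flies. Acp63F on the opposite strand reached at most 2.21 FPKM in any group.

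Fum1, fumarase, followed the same course at a higher level, at 488 FPKM in H2O-Young and 436 in PQ-Young, against 298 in H2O-Aged and 301 in PQ-Aged. The log2 age ratio in water, -0.71, was the lowest of the 8, and on paraquat it was -0.53. The paraquat ratio was -0.17 in young and 0.02 in aged flies. ND-ASHI, the gene on its other strand, went from 1063 to 489, 211 and 218 FPKM over the same groups, a log2 age ratio of -2.34 in water, and its part in the value of Fum1 was not tested. The value also includes Fum2.

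Mdh2, malate dehydrogenase, was at 531 FPKM in H2O-Young and 561 in PQ-Young, against 368 in H2O-Aged and 303 in PQ-Aged. Both aged groups were again below both young groups. PQ-Aged was 0.54 times PQ-Young, a log2 ratio of -0.89 and the lowest of any member in any comparison, against -0.53 with age in water.

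With age in water, 0 of the 8 members passed 2-fold, where 37.3% of 9106 protein-coding loci with at least 1 FPKM in either group did (13.6% higher and 23.7% lower). These shares differ with level. Of loci with a mean of 31.6 to 100 FPKM, where kdn, mAcon1, Idh3a and Idh3b lie, 6.32% were 2-fold higher and 17.4% lower. Between 316 and 1000 FPKM, where Fum1 and Mdh2 lie, 2.49% and 55.1% were. The members' log2 ratios ran from -0.71 to 0.56 with a median of -0.17, beside a median of -0.11 over all loci compared. In the deposited values kdn, Scsalpha1, Fum1 and Mdh2 were lower. mAcon1 and the 3 isocitrate dehydrogenase subunits were higher, though mAcon1 and Idh3a only at 0.07 and 0.10. At 1.5-fold, which 60.9% of all loci passed, Fum1 alone passed, as lower.

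**Figure D2:**
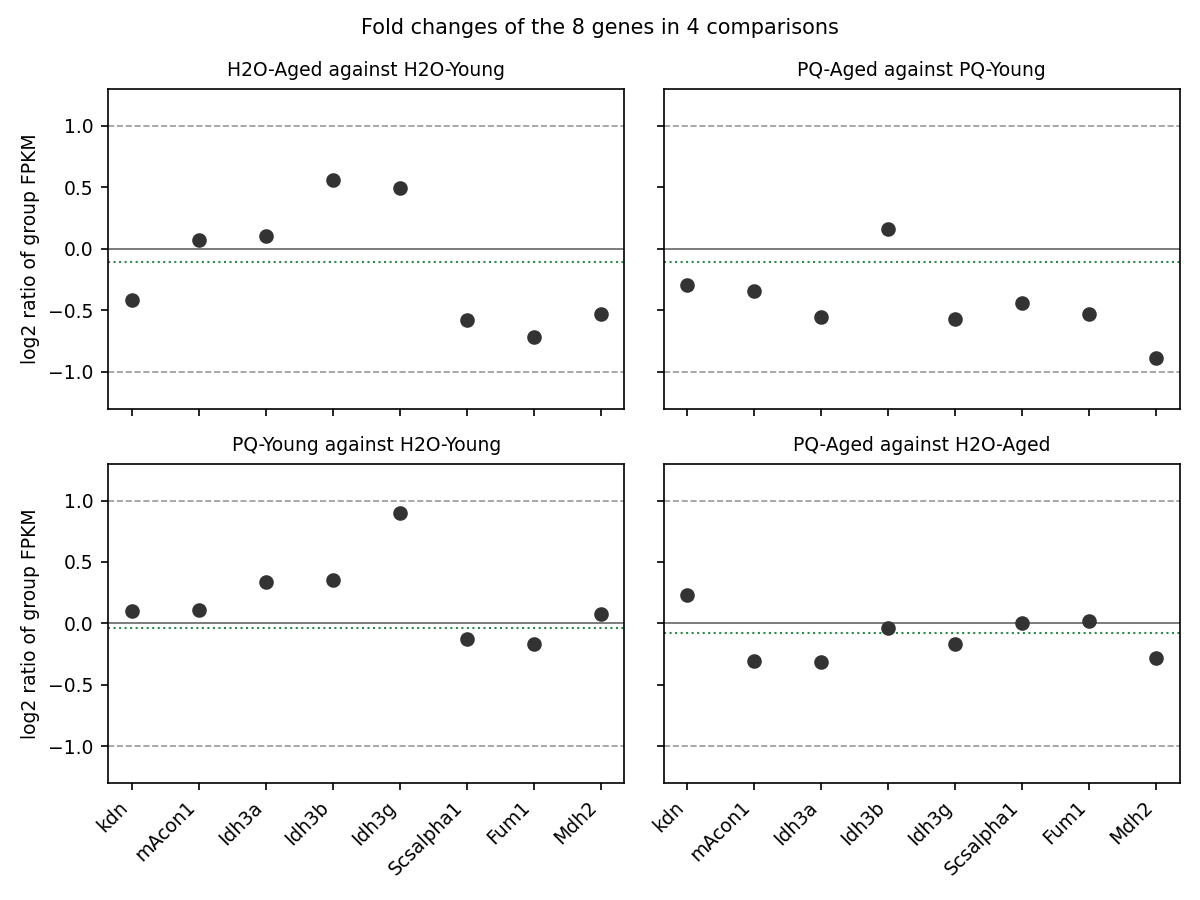
Log2 ratios of group FPKM for the 8 genes in cycle order, 1 panel for each of the 4 comparisons, with dashed lines at 2-fold and a dotted line at the median of all protein-coding loci compared. No point passes 2-fold, and the widest ratios are Idh3g at 0.90 in PQ-Young against H2O-Young and Mdh2 at -0.89 in PQ-Aged against PQ-Young.

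With age on paraquat, 0 of 8 members passed 2-fold, where 20.3% of 8914 loci did (6.54% higher and 13.8% lower). Here 7 of 8 members were below their young value, all but Idh3b, and the median log2 ratio was -0.49 beside -0.11 over all loci. Mdh2 alone passed 1.5-fold, as lower, where 43.1% of all loci passed in either direction. The comparisons with age in water and on paraquat share no libraries, but each shares its groups with the paraquat comparisons.

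With paraquat in young flies, 0 of 8 members passed 2-fold, where 11.4% of 9046 loci did (2.72% higher and 8.63% lower). Of loci between 31.6 and 100 FPKM, only 0.903% were 2-fold higher and 4.09% lower, and between 316 and 1000 FPKM 0.623% and 13.1% were. The log2 ratio was above 0 for 6 members, with Idh3g, Idh3b and Idh3a the highest at 0.90, 0.35 and 0.34, and below 0 for Scsalpha1 and Fum1. The members' median was 0.11 and that of all loci was -0.04. Idh3g alone passed 1.5-fold, as higher, where 28.7% of all loci passed.

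With paraquat in aged flies, 0 of 8 members passed 2-fold, where 3.43% of 8699 loci did (1.52% higher and 1.91% lower). Of loci between 31.6 and 100 FPKM, only 0.319% were 2-fold higher and 1.01% lower, and between 316 and 1000 FPKM 0.935% and 1.25% were. The log2 ratios ran from -0.31 for Idh3a to 0.23 for kdn with a median of -0.10, beside -0.08 over all loci, and 3 were above 0. None passed 1.5-fold, where 15.0% of all loci did. The log2 paraquat ratio in aged less that in young flies was -1.07 for Idh3g, -0.65 for Idh3a, -0.42 for mAcon1, -0.39 for Idh3b and -0.36 for Mdh2, and it was 0.12 for kdn, 0.14 for Scsalpha1 and 0.18 for Fum1. These signs depend on the scale. With equal Gapdh1 the difference was above 0 for 6 members, among them mAcon1 at 0.23, Idh3b at 0.26 and Mdh2 at 0.29, and with equal sums it was below 0 for all 8, including kdn at -0.31, Scsalpha1 at -0.30 and Fum1 at -0.25. Idh3g was below 0 under all 5 scalings, from -0.42 to -1.50. Whether these differences exceed the spread between libraries was not tested.

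The directions with age depend on how the groups are put on a common scale. The summed FPKM of all loci was 1693460 in H2O-Young and 1252260 in PQ-Young, against 770263 in H2O-Aged and 768733 in PQ-Aged, so setting these sums equal raised the median log2 age ratio in water of all loci by 1.14. Median ratio scaling raised it by 0.15, quantile normalization by 0.18 and equal Gapdh1 by 0.37. Idh3b, Idh3g, Idh3a and mAcon1 were higher with age in water as deposited and under each of these 4 scalings. kdn was lower except with equal sums, where its log2 ratio was 0.72. Scsalpha1, Fum1 and Mdh2 were lower as deposited and under median ratio and Gapdh1 scaling, but higher with equal sums, at 0.56, 0.42 and 0.61, and under quantile normalization, at 0.25, 0.20 and 0.45. With equal sums, 4 members passed 2-fold as higher, and these were mAcon1, Idh3a, Idh3b and Idh3g, a share near the 50.8% of all loci that passed as higher on that scale. The split of all loci past 2-fold, 13.6% higher and 23.7% lower as deposited, was 50.8% and 6.26% with equal sums, 17.7% and 20.3% with median ratios, 24.3% and 15.5% with equal Gapdh1 and 15.7% and 17.3% after quantile normalization. Relative to the median of all loci, the members' median in water was -0.06 under every scaling that multiplies a group by 1 factor, and 0.34 under quantile normalization.

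**Figure D3:**
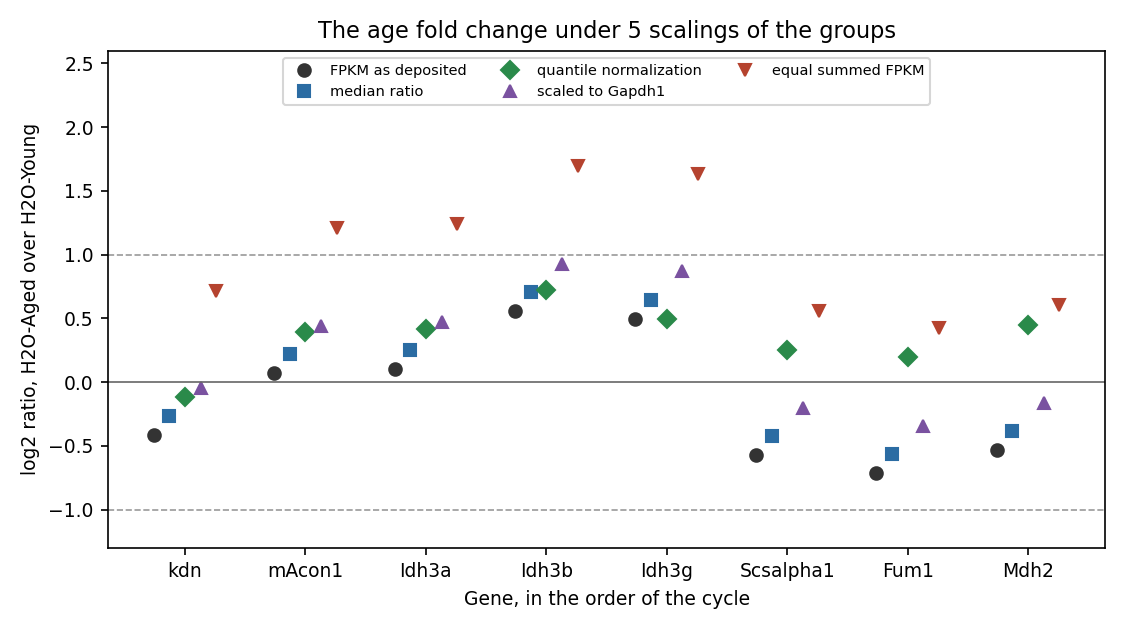
Log2 ratio of H2O-Aged over H2O-Young for the 8 genes under the deposited scale and 4 others, with dashed lines at 2-fold. mAcon1, Idh3a, Idh3b and Idh3g lie above 0 under all 5, while Scsalpha1, Fum1 and Mdh2 lie on both sides, from -0.71 for Fum1 as deposited to 0.61 for Mdh2 with equal sums.

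The other comparisons depended on the scaling as well. With paraquat in young flies, Idh3g, Idh3b, Idh3a, kdn and mAcon1 were above 0 under all 5 scalings, Mdh2 under all but Gapdh1, and Scsalpha1 and Fum1 only with equal sums and quantile normalization. With age on paraquat, Idh3b was above 0 under all 5, and 8 members were above 0 under Gapdh1 scaling and 7 with equal sums, against 1 as deposited. Gapdh1 itself was lower in PQ-Aged than in PQ-Young, at 447 against 907 FPKM. With paraquat in aged flies, kdn, Scsalpha1 and Fum1 were above 0 under all 5, and all 8 members were above 0 with equal Gapdh1. Of all loci with age on paraquat, 27.5% were 2-fold higher and 4.42% lower with equal sums, 8.47% and 11.2% with median ratios, 45.1% and 2.84% with equal Gapdh1, and 8.37% and 9.94% after quantile normalization. With paraquat in young flies the split was 10.3% and 4.13% with equal sums and 3.60% and 6.81% after quantile normalization, and in aged flies 9.60% and 0.552% with equal Gapdh1.

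A ratio of 2 genes within a group does not depend on a factor that multiplies the group. Among the subunits of isocitrate dehydrogenase, the excess of Idh3a over the others was largest in H2O-Young: Idh3a was 1.81 times Idh3b in H2O-Young and 1.79 times in PQ-Young, against 1.32 times in H2O-Aged and 1.09 times in PQ-Aged. Idh3a was 3.02 times Idh3g in H2O-Young and between 2.05 and 2.29 times in the other 3 groups, while Idh3b was 1.14 to 1.90 times Idh3g with no such order. Mdh2 was 15.1 times Idh3b in H2O-Young and 12.5 times in PQ-Young, against 7.13 times in H2O-Aged and 6.03 times in PQ-Aged. These 2 genes thus approached each other with age at either treatment, as high and low loci did across the table. Loci with a mean of 316 to 1000 FPKM, as for Mdh2, had median log2 age ratios of -1.15 in water and -0.76 on paraquat. Between 31.6 and 100 FPKM, as for Idh3b, they were -0.16 and -0.17.

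Succinyl-CoA synthetase pairs its alpha subunit with a beta subunit that sets the nucleotide, ScsbetaA for ATP or ScsbetaG for GTP. ScsbetaG was at 100.4, 64.4, 35.9 and 49.3 FPKM over the same order of groups, and ScsbetaA at 38.2, 56.8, 46.1 and 44.5. H2O-Young was thus high for ScsbetaG and low for ScsbetaA. ScsbetaG stood at 2.63 times ScsbetaA in H2O-Young and 1.13 times in PQ-Young, against 0.778 times in H2O-Aged and 1.11 times in PQ-Aged. Scsalpha1, the shared partner, exceeded ScsbetaA 7.77-fold in H2O-Young and 4.32-fold to 4.77-fold elsewhere. It exceeded ScsbetaG 2.96-fold in H2O-Young and 4.06-fold to 5.55-fold elsewhere.

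The remaining steps of the cycle, taken as a list of 9 genes, are the 3 parts of the 2-oxoglutarate dehydrogenase complex, the 2 beta subunits just given and the 4 subunits of succinate dehydrogenase. All 9 reached 1 FPKM. With age in water 3 of 9 were at least 2-fold lower and 0 were higher, beside 23.7% and 13.6% of all loci, and the list's median log2 ratio was -0.15. With equal sums 0 of 9 were 2-fold lower and 4 were higher, beside 6.26% and 50.8% of all loci on that scale. The genes of the 2-oxoglutarate dehydrogenase complex lay within 1.5-fold in the deposited values: with age in water Nc73EF, its E1 part, went from 51.1 to 50.9 FPKM, CG5214, its E2 part, from 121 to 120.3, and CG7430, the E3 part that it shares with pyruvate dehydrogenase, from 85.7 to 77.2. The value of Nc73EF includes Obp73a, which shares its locus.

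Succinate dehydrogenase, which is also complex II of the respiratory chain, has matrix and membrane parts whose genes differed in level and in course. SdhA, the flavoprotein that oxidises succinate, was at 61.4, 82.4, 56.7 and 49.2 FPKM in the 4 groups, and SdhB, the iron-sulfur subunit, at 336, 358, 234 and 183. SdhC, a membrane anchor that binds quinone, was at 1732 FPKM in H2O-Young and 811 in PQ-Young, against 399 in H2O-Aged and 318 in PQ-Aged. SdhD, the other anchor, was at 637, 339.6, 185 and 208. The anchors were therefore highest in H2O-Young by a wide margin, and the matrix subunits were not. High genes were often lower with age across the whole table. Of loci with a mean of 316 to 1000 FPKM, where SdhC and SdhD lie, 55.1% were 2-fold lower in water, with a median log2 ratio of -1.15. Between 31.6 and 100 FPKM, where SdhA lies, 17.4% were. Whether the anchors differ from other loci of their level was not tested. SdhC had log2 ratios of -2.12 with age in water, -1.35 with age on paraquat and -1.10 with paraquat in young flies, and SdhD had -1.79, -0.70 and -0.91. Both stayed below 0 with age in water under every scaling, though within 2-fold with equal sums, at -0.98 for SdhC and -0.65 for SdhD, and under quantile normalization, at -0.93 and -0.85. As ratios within a group, SdhC was 28.2 times SdhA in H2O-Young and 9.84, 7.03 and 6.47 times in PQ-Young, H2O-Aged and PQ-Aged. With age on paraquat SdhC alone of the 9 passed 2-fold, as lower, beside 13.8% of all loci. With paraquat in young flies it was again SdhC alone, as lower, beside 8.63% of all loci. With paraquat in aged flies none did, beside 3.43% of all loci in either direction. With equal sums SdhC was within 2-fold with age on paraquat and with paraquat in young flies, beside 4.42% and 4.13% of all loci 2-fold lower.

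**Figure D4:**
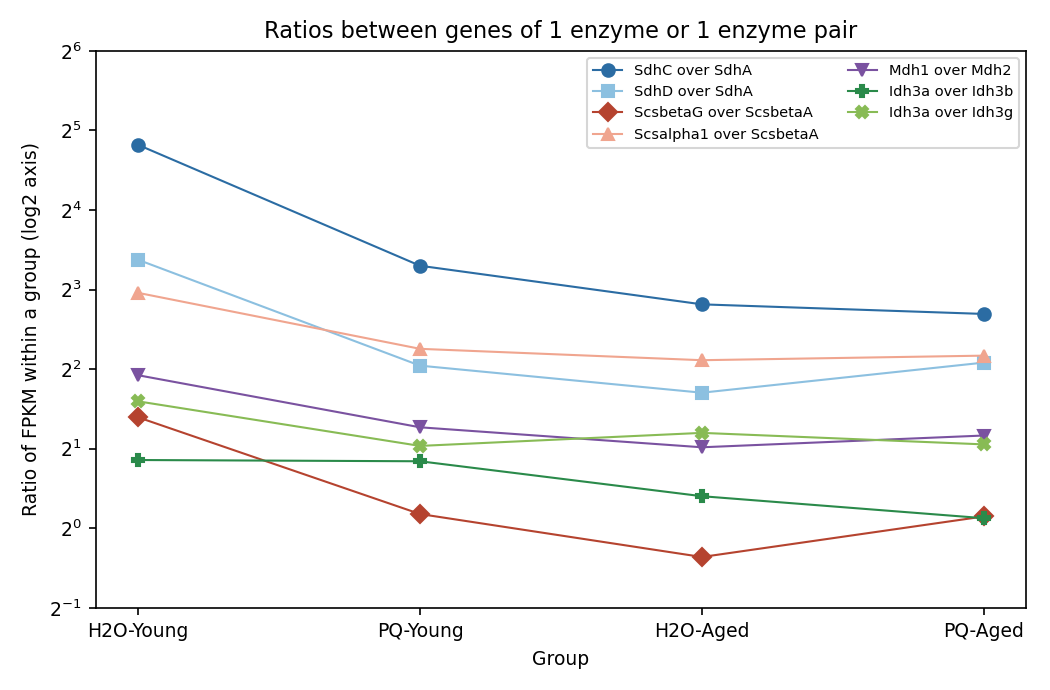
Ratios of FPKM within a group, on a log2 axis, for pairs of genes of 1 enzyme or of 1 enzyme pair, with 1 point for each of the 4 groups. SdhC over SdhA goes from 28.2 to 6.47 and ScsbetaG over ScsbetaA from 2.63 to 1.11 between H2O-Young and PQ-Aged, with 0.778 in H2O-Aged for the latter, while Idh3a over Idh3b stays between 1.09 and 1.81.

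Pyruvate enters the cycle through the pyruvate dehydrogenase complex or pyruvate carboxylase. Of 7 such genes, all at 1 FPKM or more, 2 were at least 2-fold lower with age in water and 0 higher, beside 23.7% and 13.6% of all loci, with a median log2 ratio of -0.79, which became 0.34 with equal sums, where none was 2-fold lower or higher. They were Pdhb, the beta part of the E1 enzyme, at -1.62, and Pdk, the kinase that switches the complex off, at -1.75. On paraquat the age comparison gave 2 lower, Pdha at -1.38 and Pdhb at -1.26, beside 13.8% of all loci. With equal sums it gave 0 lower, beside 4.42%. Neither paraquat comparison gave any past 2-fold, where 11.4% of all loci passed in young and 3.43% in aged flies. Pdhb went from 1249 FPKM in H2O-Young to 876, 408 and 366. Of loci with a mean of 316 to 1000 FPKM, where Pdhb lies, 55.1% were 2-fold lower with age in water. Pdk, at 365 FPKM in H2O-Young, was at 221, 108 and 118. muc, the E2 part of the complex, stayed between 43.9 and 53.3 FPKM, close to Nc73EF. The value of Pdha includes CG7024.

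Other enzymes use the cycle's substrates in the cytosol or in side reactions of the mitochondrion. Of 11 such genes 10 were matched to a locus, and 4 of these were at least 2-fold lower with age in water and 0 higher, beside 23.7% and 13.6% of all loci, with a median log2 ratio of -0.75. With equal sums the median was 0.38, with 0 lower and 2 higher, beside 6.26% and 50.8% of all loci. Idh, the NADP-dependent isocitrate dehydrogenase, was at 2164 FPKM in H2O-Young and 1447 in PQ-Young, against 599 in H2O-Aged and 412 in PQ-Aged. It stood at 34.0 times Idh3a in H2O-Young and at 18.0, 8.78 and 7.51 times in the other groups. Mdh1, the cytosolic malate dehydrogenase, was at 2014, 1352, 744 and 679.6 FPKM, which was 3.79 times Mdh2 in H2O-Young and 2.41, 2.02 and 2.24 times in the others. Men, the cytosolic malic enzyme that yields NADPH, was at 576, 479, 172 and 126, and Men-b, its mitochondrial counterpart, at 29.3, 36.5, 48.0 and 39.2. ATPCL, which splits exported citrate into acetyl-CoA and oxaloacetate, had a log2 age ratio of -1.51 in water. Gdh, which feeds 2-oxoglutarate in from glutamate, had 0.73. Of loci with a mean above 1000 FPKM, where Idh and Mdh1 lie, 60.4% were 2-fold lower with age in water. With age on paraquat 3 of 10 were at least 2-fold lower, Idh at -1.81, Men at -1.92 and ATPCL at -1.23, beside 13.8% of all loci. With equal sums 2 were, beside 4.42%, and with equal Gapdh1 0 were, beside 2.84%. With paraquat 0 passed 2-fold in either age, beside 11.4% of all loci in young and 3.43% in aged flies. A test between these genes and the members was not possible with 1 value per group.

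**Figure D5:**
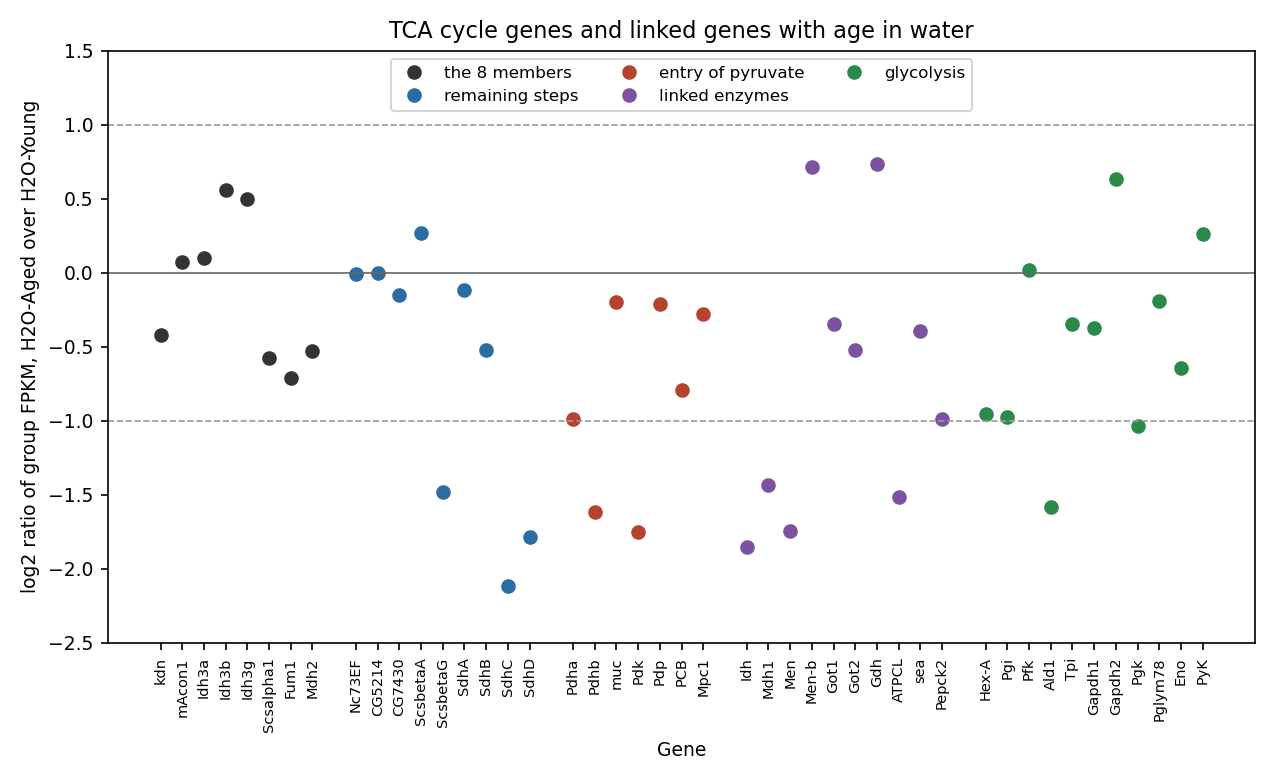
Log2 ratio of H2O-Aged over H2O-Young for the 8 members, the 9 genes of the remaining steps, 7 genes of pyruvate entry, 10 linked enzymes and 11 glycolytic genes, with dashed lines at 2-fold. The members lie between -0.71 and 0.56, and SdhC at -2.12 and Idh at -1.85 lie furthest from 0.

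Glycolysis, which makes the pyruvate, gave 2 of 11 genes at least 2-fold lower with age in water, Ald1 at -1.58 and Pgk at -1.03, and 0 higher, beside 23.7% and 13.6% of all loci, with a median log2 ratio of -0.37 that became 0.77 with equal sums. On paraquat 4 of 11 were at least 2-fold lower with age as deposited, beside 13.8% of all loci, and the median was -0.64 beside -0.49 for the members. With median ratios 1 of 11 was lower, beside 11.2% of all loci. With equal sums, equal Gapdh1 or quantile normalization 0 were, beside 4.42%, 2.84% and 9.94%. The median with equal sums was 0.06, beside 0.22 for the members. Paraquat gave 0 of 11 in either age, beside 11.4% of all loci in young and 3.43% in aged flies.

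Paralogs of the cycle's enzymes were at low FPKM. Of 14 listed, only Fum2, which shares the value of Fum1, and CG1544, an oxoglutarate dehydrogenase paralog, reached 1 FPKM in H2O-Young. CG1544 was at 2.87 FPKM in H2O-Young and 1.44, 1.15 and 1.25 in the other groups. Fum4 was the other to reach 1 FPKM, at 1.03 in PQ-Aged, a value that includes Sur, which shares its locus. mAcon2, CG14740, CG3483 and SdhAL were listed at 0 in H2O-Young, beside 67.6 FPKM for mAcon1.

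By the shape of the mean log2 profile of the 8 members over the 4 groups, the nearest genes among 4664 with at least 10 FPKM in every group were tn, Usp2, CG6689, ATPsynE and Pstk. Their distances from the mean profile, in log2 units over 4 groups, were 0.03, 0.05, 0.06, 0.07 and 0.07, and 187 of the 4664 lay within 0.2. With 4 points to a profile this is a description. ATPsynE, a subunit of ATP synthase, was at 601, 668, 549 and 529.8 FPKM. Of the members themselves Idh3a lay nearest to the mean, at 0.19, and Idh3b furthest, at 0.65.

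The groups also differed in markers of the cells that the pull-down could hold, and the part of this in the members' values was not tested. Of 6 oenocyte markers 5 had a value and the sixth, Cyp4g1, was listed at 0 with a mark for too many fragments. The summed FPKM of the list was 34393 in H2O-Young and 11417 in PQ-Young, against 1736 in H2O-Aged and 1386 in PQ-Aged. CG30008 alone was at 28309 FPKM in H2O-Young. FarO, CG18609 and CG30008 were at least 2-fold lower with age in water. Desat1 was at 172 and 147 FPKM in H2O-Young and H2O-Aged, a value that includes vrs, which shares its locus. Muscle markers, of a tissue rich in these enzymes, summed to 308, 486, 576 and 779 FPKM over 7 of 8 genes, sls carrying the same mark, with Act57B alone at 62.6, 203, 325 and 551. In water Act88F and Act57B were at least 2-fold higher with age and up had a log2 ratio of -0.93. On paraquat Act57B and Mlc2 were at least 2-fold higher with age, 4 of the 7 were below 0 and the list's median was -0.25. Eggshell markers summed to 11681, 2831, 1799.7 and 2033 FPKM, and all 7 were at least 2-fold lower with age in water. Summed fat body markers went from 20565 to 1825 FPKM with age in water and midgut markers from 3391 to 796, and both lists had no member that was higher. Germline markers went from 293 to 448 FPKM, neuronal from 17.5 to 7.88, photoreceptor from 366 to 314 and hemocyte from 7.58 to 17.0. Several of these sums rest on few genes. Pxn led the hemocyte sum, from 6.08 to 15.6, while Hml and NimC1 stayed below 1 FPKM. Among photoreceptor genes ninaE, from 238 to 241, and Rh3, from 17.2 to 32.0, were higher, and Rh6 and trp were lower. Yp1 and Yp2 led the fat body sum, at 6020 and 14515 FPKM in H2O-Young. The summed FPKM of the 8 members was 1580.2, 1587, 1142 and 1059.9 over the 4 groups, or 0.0933%, 0.127%, 0.148% and 0.138% of all FPKM. RpL13A, the gene of the tagged protein, was at 8001, 7306, 3849 and 3171 FPKM.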

How the data were processed

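Ribosome-bound RNA from 12 libraries was sequenced as single-end reads. Per the submitters' processing notes, TopHat2, Cufflinks and Cuffdiff were used with the dm6 build. The authors deposited 1 table of group FPKM, each value estimated over the 3 libraries of a group, for 16191 loci and 6 pairs of groups. Its fold change, test statistic, p-value and q-value columns hold the authors' own comparisons and were not used. The depth per library is not given in the table. No locus had a group value that differed between pairs.

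RefSeq accessions were matched to symbols with the annotation (19 of 19 at the members' loci), and positions were taken from the dm6 annotation. A symbol at several loci took the one with the highest summed FPKM. Log2 ratios of group FPKM were computed with no pseudocount, in Python 3.11.15 with pandas 2.3.3, for 4 comparisons. Protein-coding loci (13299, of which 483 hold several coding genes) entered a comparison at 1 FPKM or more in either group, and the 87 loci marked for too many fragments were left out. Fold calls were checked on simulated data, where recovery was required under median ratio scaling only and not on the deposited scale. Alternatives were other scalings of the groups, a pseudocount of 1, a threshold of 1.5-fold, summed loci and no filter. All members are named, and other genes only from lists of the pathway and of cell type markers. The members and lists were chosen with earlier results of these data known.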

Additional observations from a re-analysis of the deposited data

How the results depend on the processing

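No value was given per library, so no library could be left out and no spread estimated. No paired analysis was possible because the table pools the 3 libraries of each group. The count of members past 2-fold was 0 in each comparison as deposited. It became 4 with age in water and 1 with paraquat in young flies when every group was scaled to the same summed FPKM, where 50.8% and 10.3% of all loci passed as higher, and 1 with age on paraquat when scaled to Gapdh1, where 45.1% did. Each member had 1 locus, so summing all loci of a symbol could change no count or median. At 1.5-fold the count of members was 1, 1 and 1 in these comparisons and 0 with paraquat in aged flies.

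The members' median log2 ratio with age in water, -0.17 as deposited, was 0.96 with equal sums, -0.024 with median ratios, 0.20 with Gapdh1 and 0.41 with quantile normalization. With age on paraquat, -0.49 became 0.22, -0.37, 0.54 and -0.087 in the same order, and -0.48 with a pseudocount of 1. With paraquat in young flies, 0.11 became 0.54, 0.17, 0.0048 and 0.33, and 0.10 with the pseudocount. With paraquat in aged flies, -0.10 became -0.068 with median ratios, 0.45 with Gapdh1 and -0.033 with quantile normalization. Of alternatives chosen after seeing the data, leaving out mAcon1 and Fum1, which share a locus, gave -0.16 with age in water, -0.50 with age on paraquat and 0.22 with paraquat in young flies. Keeping only kdn, Idh3a, Idh3b and Mdh2 gave -0.16, -0.42, 0.22 and, with paraquat in aged flies, -0.16. Without the filter on low values, the share of loci past 2-fold was 22.4% with paraquat in young and 16.3% in aged flies, above 11.4% and 3.43%. The causes of these shifts were not tested.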
